A study of Mus musculus with 20 samples.

Results

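The effect of losing Sorbs2 on the mouse heart was compared between 2 ages, 6 weeks and 6 months. For each gene, the KO minus WT log2 change at 6 weeks was subtracted from the KO minus WT log2 change at 6 months, and that difference, named the age difference here, is the quantity described. A positive age difference means that the KO effect was higher at 6 months, and a negative one that it was lower. Genes entered when they had a normalised count of at least 10 in 4 libraries at 6 months and in 3 libraries at 6 weeks, which 12577 of the 19222 genes listed in the deposited tables did. RNA sequencing was done on 20 mouse hearts, of which 16 are used. The 4 groups are Sorbs2 WT at 6 weeks (3 samples), Sorbs2 KO at 6 weeks (3 samples), Sorbs2 WT at 6 months (5 samples) and Sorbs2 KO at 6 months (5 samples), none of them treated. The 4 remaining samples are 6-month KO hearts given a Sorbs2 vector and were not used here. The labels name the tissue as left ventricle and the KO only as KO, with no allele, promoter or strain. The 2 tables were normalised separately, so a level at 6 weeks and a level at 6 months are not on one scale, and only the KO minus WT contrasts within each table were set against each other. Nothing in the labels ties samples of one number to a litter or a day, and the 6-week columns (WT1, WT6, WT16, KO2, KO3 and KO4) carry numbers that match no sample title.

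Sorbs2 encodes an adaptor protein with SH3 domains that sits at the Z-disc and the intercalated disc of heart muscle cells, where it links actin filaments to signalling proteins. Heart muscle under lasting load is known to return to fetal forms of contractile proteins, to release natriuretic peptides, to lower the expression of genes for fatty acid oxidation and respiration, and to be accompanied by fibroblasts that deposit collagen and matricellular proteins. Such programmes build up with time, so a comparison of 2 ages sets the response of each gene at both side by side.

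The targeted gene was low in every KO library at both ages. Sorbs2 normalised counts at 6 weeks were 1409, 1751 and 1989.8 in WT and 365, 334 and 276 in KO libraries, so KO held 18.9% of the WT mean (exact two-sided permutation p = 0.1, the smallest that 3 against 3 allows). At 6 months they were 5352, 5398, 5136, 4562 and 4753 in WT and 1648, 612, 593, 494 and 1755 in KO replicates 1 to 5, or 20.2% of the WT mean (exact two-sided permutation p = 0.00794, the smallest that 5 against 5 allows). The groups did not overlap at either age, and KO replicates 1 and 5 at 6 months held more Sorbs2 than the other 3. The age difference of Sorbs2 itself was -0.13 ± 0.39 (SE; adjusted p = 0.902).

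The 2 ages did not hold the same tissue by its markers. Myl7, the atrial regulatory light chain, had 22450 to 32889 normalised counts in WT and 20062 to 35244 in KO libraries at 6 weeks, which is 21.8% to 50.8% of the level of the ventricular light chain Myl2 in the same libraries. In the 6-month libraries it was 0.000575% to 0.526% of Myl2, with the highest share in KO replicate 3. Myl4, Sln and Mybphl, further atrial markers, showed the same split, and within each age the WT and KO ranges of all 4 genes overlapped. The ventricular marker Irx4 did not overlap at 6 weeks, with 228 to 426 in WT and 130 to 179 in KO libraries. At 6 months its ranges overlapped, as those of Myl2 did at both ages. 6-week KO libraries KO3 and KO4 also held 1981 and 772 normalised counts of the airway gene Scgb1a1, against 15.4 to 42.7 in the other 4. Ribosomal precursor RNA (Rn45s) took 1.94% to 4.98% of a library at 6 weeks and 0.203% to 0.445% at 6 months. By Xist and Y-linked genes, 1 WT and 1 KO library at 6 weeks and 2 WT libraries at 6 months were of the Xist class, and no 6-month KO library was. Total normalised counts were 6.71 to 8.24 M per library at 6 weeks and 11.4 to 13.7 M at 6 months. The part of these differences between the tables in any age difference was not tested, except for the Xist class, which the closing section covers.

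The KO effect differed between the ages for 536 genes, 4.26% of the 12577 tested, at an adjusted p under 0.05 (limma on log2(normalised count + 1) within each table, with the standard errors of both contrasts combined and Benjamini-Hochberg adjustment over all genes tested). It was higher at 6 months for 254 genes (2.02%) and lower for 282 (2.24%). At an unadjusted p under 0.05 there were 2350 genes. Of the calls, 471 were at least 2-fold and 146 at least 4-fold. Within the ages, 96 genes (0.763%) differed between KO and WT at 6 weeks and 2073 (16.5%) at 6 months, where 1001 (7.96%) rose and 1072 (8.52%) fell. A call at 1 age alone did not amount to an age difference: of 2040 genes called only at 6 months, 1690 had no call for the age difference itself. The median standard error was 0.25 for the 6-week contrast, 0.18 for the 6-month contrast and 0.32 for the age difference. WT and KO libraries did not overlap in 2702 genes (21.5%) at 6 weeks and in 1756 (14%) at 6 months. Groups that lie apart without a call are thus common, and where named below they are a description only.

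The called genes fell into 3 patterns by the signs of their estimates. In 123 genes the KO effect had the same direction at both ages and was larger at 6 months, upward in 88 and downward in 35. In 9 genes it was smaller at 6 months. In 404 genes, 75.4% of the calls and 3.21% of all genes tested, the estimates had opposite signs, with the 6-month estimate upward in 163 and downward in 241. Few of these were called in both directions: 5 of the 404 passed the KO against WT test at both ages, 31 only at 6 weeks, 229 only at 6 months and 139 at neither. In 71 of the 404 the 6-week estimate lay within 1 SE of 0, so its sign carries little, while 146 had an unadjusted p under 0.05 at both ages. Across all 12577 genes the 2 sets of log2 changes, which share no sample, had Pearson's r = 0.25 and Spearman's rho = 0.20 as a description across genes, which are not independent. Their signs matched in 56.2% of all genes, in 58.3% of those called at 6 weeks and in 71.3% of those called at 6 months.

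**Figure D1:**
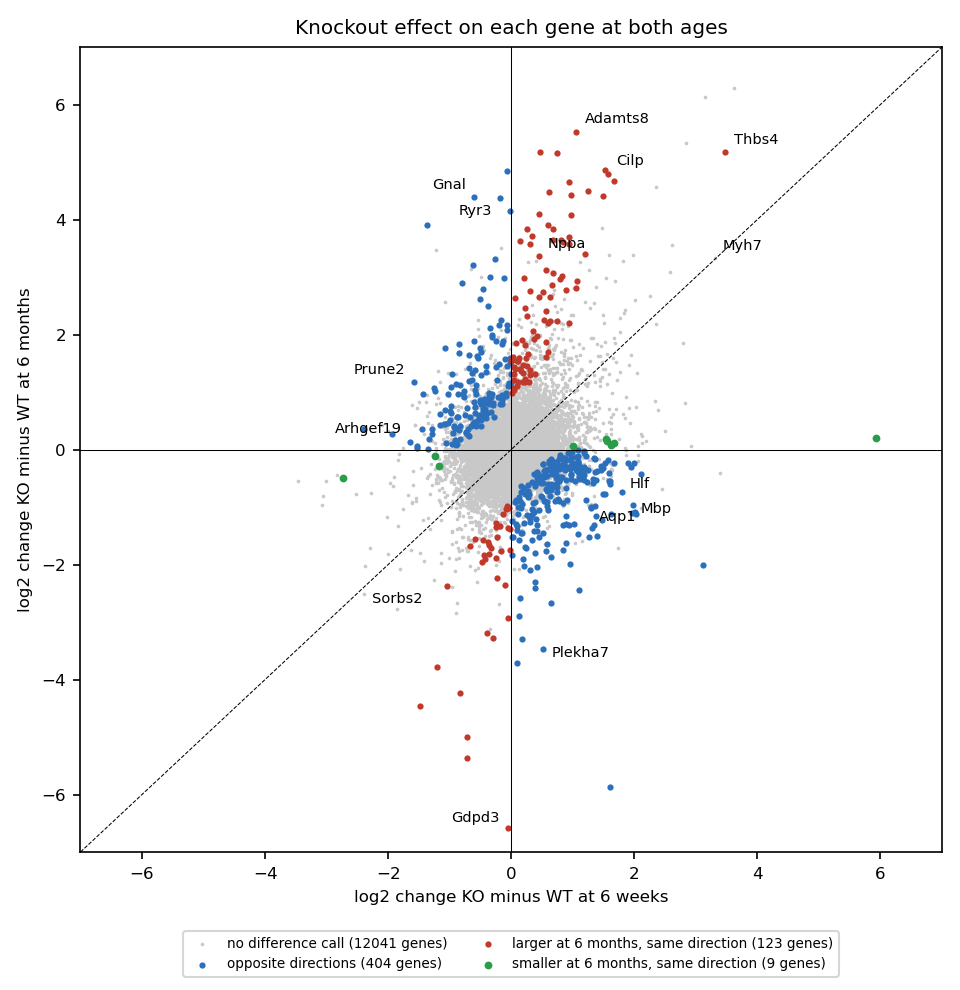
Log2 change KO minus WT of each of the 12577 genes at 6 weeks (x axis) and at 6 months (y axis), each point a gene, with the dashed line where both are equal. The 123 genes with a larger effect at 6 months lie in the upper right above the line or in the lower left below it. The 404 with opposite signs lie in the upper left and lower right, and Sorbs2 and Myh7 lie near the line.

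The number of calls depended on 3 of the 6-week libraries. Without library KO3 it was 228, without WT6 it was 262 and without KO4 it was 320. Of these, 222, 260 and 303 were among the 536. Leaving out any of the other 13 libraries gave 442 to 667 calls.

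**Figure D2:**
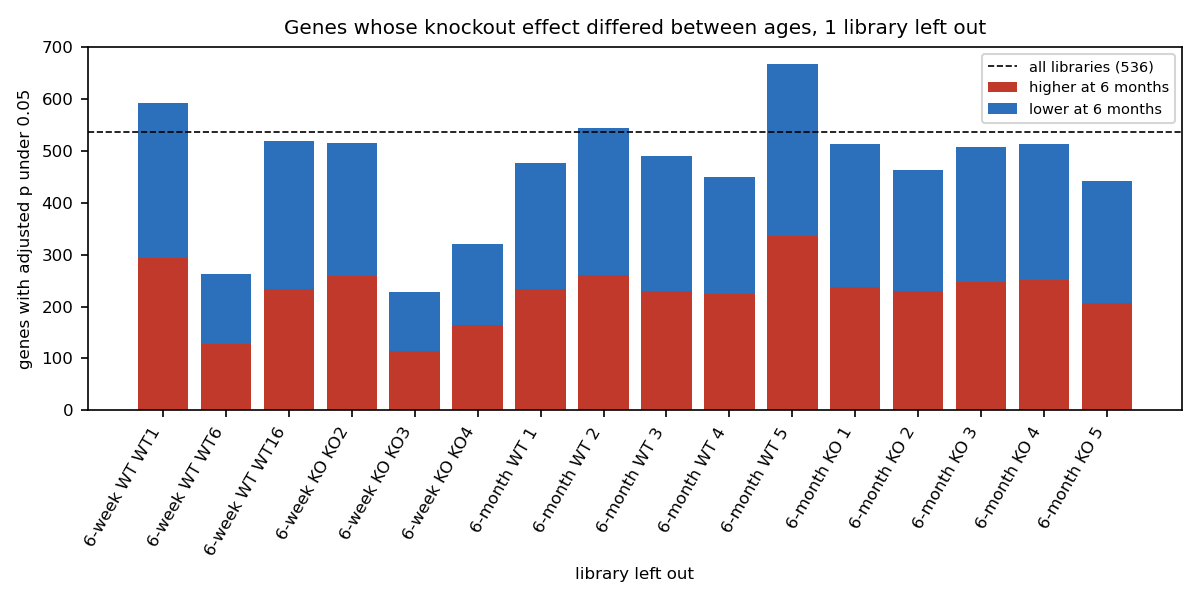
Number of genes whose KO effect differed between ages (y axis, adjusted p under 0.05) after leaving out each of the 16 libraries in turn (x axis), stacked by direction, with the dashed line at the 536 genes of all libraries. The 3 lowest bars are those without 6-week KO3 (228), WT6 (262) and KO4 (320).

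Some genes were called at 6 weeks already and had no call for the age difference. Of the 33 genes called at both ages, 28 had the same direction, and 26 of these had no call for the age difference. They were a mixed set, with Sorbs2 itself and secreted proteins such as Ctgf and Igfbp7 beside muscle genes. Myh7, the slow and fetal myosin heavy chain, had 1750.4, 1117 and 883 normalised counts in 6-week WT and 26077, 8156 and 7892 in 6-week KO libraries, a log2 change of 3.31 ± 0.41 (SE). Its 6-month values were 12919, 8894, 9170.3, 18758 and 21171 in WT and 137963, 97021, 99578, 150922 and 209559 in KO libraries, a log2 change of 3.32 ± 0.30. Every KO library was above every WT library at both ages. The age difference was 0.02 with a 95% confidence interval of -1.04 to 1.07. Myh7 shares 22.9% of its transcript sequence (as 31-base stretches) with other genes, chiefly Myh6, and its values depend on how shared reads were counted. Casq1, the calsequestrin of fast skeletal muscle, rose by 2.62 ± 0.18 at 6 weeks and by 3.55 ± 0.32 at 6 months (age difference 0.93, interval 0.16 to 1.71, adjusted p = 0.17). The skeletal actin Acta1, with log2 changes of 2.01 and 2.60, and the myosin-binding protein Mybpc2, with 2.25 and 2.68, also rose at both ages. Downward, the liver and muscle form of phosphofructokinase-2, Pfkfb1, fell at both ages, with log2 changes of -2.29 ± 0.25 and -1.71 ± 0.24. Asb14, which directs ubiquitin ligases to their targets, with -1.33 and -0.77, fell likewise. For Casq1 and Asb14 (interval 0.02 to 1.09) the interval of the age difference lay above 0, so the lack of a call does not show equal effects. Fibin rose by 1.85 ± 0.23 and 2.43 ± 0.22.

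Stress and fetal genes of the heart included genes called at 6 weeks already and genes with a larger KO effect at 6 months. Of 16 tested members, 5 had a higher KO effect at 6 months (against 2.02% of all genes) and 0 a lower one. This list and those below were chosen with earlier results of these data known, so their shares are a description only. The median log2 change of the list was 0.54 at 6 weeks and 1.64 at 6 months, and the median age difference was 0.70 against -0.02 for all genes. At 6 weeks 4 members rose (Myh7, Acta1, Mybpc2 and the slow troponin Tnni1), and at 6 months 11 did. Of all genes, 0.485% rose at 6 weeks and 7.96% at 6 months. Xirp2, an actin-binding repeat protein of the intercalated disc, had 2799.9, 3572 and 2727 in WT and 7357, 4336 and 3483 in KO libraries at 6 weeks, groups that overlap. At 6 months its values were 10977, 12994, 10093, 5994 and 5912 in WT and 114007, 112597, 81079, 102405 and 141896 in KO libraries, with all KO libraries above all WT libraries. Its age difference was 2.96 ± 0.37 (adjusted p = 2.35e-05). Nppa, atrial natriuretic peptide, was already abundant in WT at 6 weeks, with 115778, 89017 and 56246 in WT and 154430.0, 118053 and 81401 in KO libraries. Its values at 6 months were 5866, 9946, 8782, 7057 and 5978 in WT and 118031, 60255, 36237, 75419.7 and 126811 in KO libraries, and the age difference was 2.91 ± 0.54 (adjusted p = 0.00258). The WT and KO ranges overlapped at 6 weeks and lay apart at 6 months. Nppa is itself an atrial marker, the 6-week libraries of both genotypes held atrial transcripts, and their part in the 6-week estimate was not tested. Its exons also overlap by 61.5% with the opposite-strand gene Gm13054, and the strand setting of the counting is not given in the sources used here. Rcan1, a calcineurin target, had an age difference of 1.46 ± 0.39 (adjusted p = 0.0318), and Fhl1, a LIM protein of the stretch response, one of 0.93 ± 0.24 (adjusted p = 0.0265). Without 6-week library WT6, KO3 or KO4 the list had 2, 3 and 2 calls.

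Ankrd1, a stretch-responsive ankyrin repeat protein and a target of the TEAD transcription factors, also had a higher KO effect at 6 months. Its normalised counts at 6 weeks were 13122, 31528 and 11514 in WT and 52475, 24314 and 13611 in KO libraries, with wide overlap. At 6 months they were 26134, 32487, 22052, 22150.2 and 17232 in WT and 242297, 122095, 87505, 121525 and 229207 in KO libraries, all KO above all WT, and the age difference was 2.04 ± 0.57 (adjusted p = 0.0478, a call lost in 16 of 31 alternative settings). The letters CATTCC, or GGAATG on the other strand, are the core of the TEAD binding motif. Promoters are shown for this late gene and for Acta1 and Myh7, whose response was present at 6 weeks, because all 3 hold that motif. Each is the RefSeq sequence of the 250 bases before the gene's start (GRCm38.p6, minus strand, printed 5′ to 3′ in the direction of transcription), with the motif in capitals. In this window the motif, on either strand, was found in 12.6% of all promoters and in 8 of 23 promoters (34.8%) of the stress and fetal list. Mybpc2, called at 6 weeks, was among the list genes found with it. Tnni1, also called at 6 weeks, and Xirp2, Nppa, Rcan1 and Fhl1, with a higher KO effect at 6 months, were not. The 3 genes were picked for the motif, so its presence in them is a description of the letters and not of binding.
Ankrd1, chr19:36119845-36120094: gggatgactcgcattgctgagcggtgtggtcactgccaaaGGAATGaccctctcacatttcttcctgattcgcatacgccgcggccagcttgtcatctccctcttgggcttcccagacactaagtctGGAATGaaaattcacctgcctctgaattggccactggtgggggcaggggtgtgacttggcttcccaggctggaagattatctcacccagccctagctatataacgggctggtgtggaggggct
Acta1, chr8:123894776-123895025: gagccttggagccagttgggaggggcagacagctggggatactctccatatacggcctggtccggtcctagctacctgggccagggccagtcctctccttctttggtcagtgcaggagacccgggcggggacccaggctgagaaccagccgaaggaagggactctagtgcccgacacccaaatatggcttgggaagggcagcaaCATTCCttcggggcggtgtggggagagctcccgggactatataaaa
Myh7, chr14:54994627-54994876: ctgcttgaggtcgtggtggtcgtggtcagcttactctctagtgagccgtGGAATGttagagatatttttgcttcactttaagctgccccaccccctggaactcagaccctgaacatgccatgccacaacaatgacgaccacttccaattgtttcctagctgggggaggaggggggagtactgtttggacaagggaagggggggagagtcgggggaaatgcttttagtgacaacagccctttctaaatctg
Of the 16 tested TEAD factors, cofactors and targets, 3 had a higher KO effect at 6 months (against 2.02% of all genes) and 0 a lower one. Without library WT6, KO3 or KO4 none of the 3 was called. Vgll3, a TEAD cofactor, had log2 changes of -1.24 ± 0.44 at 6 weeks and 1.01 ± 0.30 at 6 months, and Amotl1, an angiomotin that binds the TEAD cofactor YAP, had -0.62 ± 0.20 and 0.44 ± 0.12. The factors Tead1, Tead2, Tead3 and Tead4 had age differences of 0.30, -0.38, 0.47 and -0.81, none of them called.

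Matrix genes were among those with a higher KO effect at 6 months. Among 30 tested matricellular and proteoglycan genes, which encode secreted proteins around the collagen fibres, 9 had a higher KO effect at 6 months (against 2.02% of all genes) and 0 a lower one, and the median age difference was 0.81. At 6 weeks 3 members rose (against 0.485% of all genes). At 6 months 24 rose (against 7.96%) and 1 fell (against 8.52%). Cilp, cartilage intermediate layer protein, had 107, 106 and 105 in WT and 226, 464 and 301 in KO libraries at 6 weeks. At 6 months the values were 55.6, 97.8, 110.3, 99.4 and 69.2 in WT and 3262, 1911, 1896, 2142 and 2849.6 in KO libraries. KO was above WT at both ages without overlap, and the log2 change went from 1.57 ± 0.26 to 4.79 ± 0.21 (age difference 3.23 ± 0.33, adjusted p = 3.57e-06). Cilp and thrombospondin 4, Thbs4, were the 2 genes called at both ages in the same direction with a larger effect at 6 months. Thbs4 rose by 3.48 ± 0.31 at 6 weeks and by 5.17 ± 0.35 at 6 months (adjusted p = 0.0389 for the age difference). That call was lost in 16 of 31 alternative settings, 12 of them with 1 library left out, with adjusted p up to 0.194.

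Other matrix genes had no call at 6 weeks. Fmod, fibromodulin, which binds collagen fibrils, had 289.9, 74.1 and 131 in WT and 171, 178 and 437 in KO libraries at 6 weeks, an overlap. The 6-month values were 7.80, 5.71, 5.66, 12.3 and 10.3 in WT and 556, 289, 249, 182 and 466 in KO libraries, with every KO library above every WT library (age difference 4.41 ± 0.55, adjusted p = 4.46e-05). Comp, cartilage oligomeric matrix protein, had an age difference of 3.37 ± 0.36 (adjusted p = 3.76e-06), the latent TGF-beta binding protein Ltbp2 one of 3.10 ± 0.44 (adjusted p = 0.000133) and periostin, Postn, a product of activated fibroblasts, one of 2.63 ± 0.42 (adjusted p = 0.000533). All 3 were called at 6 months and not at 6 weeks. Among the collagens 18 of 19 rose at 6 months (against 7.96% of all genes) and 0 at 6 weeks, and 2 had a call for the age difference (against 4.26%). These were Col12a1, a collagen that decorates fibril surfaces (3.47 ± 0.64, adjusted p = 0.00205), and Col8a1, a short-chain collagen (1.26 ± 0.29, adjusted p = 0.0141). All 19 collagens had a positive age difference, with a median of 0.73, and the fibrillar collagen Col1a1 had 0.74 (adjusted p = 0.221). Of 14 fibroblast markers 0 had a call for the age difference by limma (3 at an unadjusted p under 0.05), with a median of 0.31. At 6 months 9 of them rose (against 7.96% of all genes). In bulk tissue, more cells of a type and more RNA per cell cannot be told apart.

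Among the 25 tested matrix remodelling enzymes and their inhibitors, 9 had a higher KO effect at 6 months (against 2.02% of all genes). A lower one was called for 3 (against 2.24%). Adamts8, a secreted metalloproteinase (mm10 chr9:30942562-30963838, plus strand), had 50.5, 98.7 and 57.6 in WT and 142, 161 and 116 in KO libraries at 6 weeks. At 6 months the values were 21.5, 10.5, 14.1, 13.3 and 9.29 in WT and 712, 576, 343, 906 and 937 in KO libraries. KO was above WT in every library at both ages, by 2.08-fold without a call at 6 weeks and by 46.2-fold with one at 6 months, on the log2(value + 1) scale (age difference 4.47 ± 0.40, adjusted p = 3.53e-07). Loxl3, a lysyl oxidase that crosslinks collagen, had log2 changes of -0.15 ± 0.25 and 1.84 ± 0.29 (adjusted p = 0.00321). Both called inhibitors had a lower KO effect at 6 months. Timp4, the metalloproteinase inhibitor typical of heart, had 246, 356 and 383 in WT and 959, 519.8 and 648 in KO libraries at 6 weeks. At 6 months the values were 1129, 564, 1125, 865 and 632 in WT and 559, 188, 248, 234 and 378 in KO libraries. KO was above WT without overlap at 6 weeks (not called, adjusted p = 0.0693) and below it without overlap at 6 months, and the age difference was -2.56 ± 0.39 (adjusted p = 0.000283). Of all genes, 21.5% had no overlap at 6 weeks and 14% had none at 6 months. Timp3, with log2 changes of 0.97 ± 0.20 and -0.51 ± 0.25, had an age difference of -1.48 ± 0.32 (adjusted p = 0.00856), and the third lower member was the proteinase Adamts1 (-1.21 ± 0.34, adjusted p = 0.0448, lost in 16 of 31 alternative settings). Without library WT6 or KO3 the list had 2 higher and 2 lower calls, and 6 and 2 without KO4. Timp3 overlaps Syn3 on the other strand over 21.3% of its exon bases.

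TGF-beta ligands, which drive fibroblast activation, were among the genes with a higher KO effect at 6 months. Tgfb2 had 124, 129.8 and 115 in WT and 331, 215 and 185 in KO libraries at 6 weeks and 82.9, 171, 138, 140.4 and 116 in WT and 1705, 1628, 1209.8, 1834 and 2001 in KO libraries at 6 months. All KO libraries were above WT at both ages, and the log2 change was 0.94 ± 0.24 (adjusted p = 0.0918) at 6 weeks and 3.70 ± 0.19 at 6 months (age difference 2.77 ± 0.31, adjusted p = 6.49e-06). Tgfb3 had an age difference of 1.34 ± 0.26 (adjusted p = 0.00277) and the activin subunit Inhba one of 2.39 ± 0.39 (adjusted p = 0.000679). Of 16 tested members of the pathway these 3 had a call, all of them higher (against 2.02% of all genes). The list median was 0.12, a value whose sign turned under some of the alternative settings.

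Several genes of muscle excitation, signalling and metabolism had no call at 6 weeks and rose at 6 months. Ryr3, a calcium release channel found at low levels in striated muscle, had 24.2, 40.7 and 40.9 in WT and 28.7, 28.0 and 34.2 in KO libraries at 6 weeks. Its values at 6 months were 31.3, 32.2, 45.2, 8.20 and 13.4 in WT and 459.6, 407, 247, 648 and 819 in KO libraries, with no overlap (age difference 4.55 ± 0.55, adjusted p = 2.1e-05). It was the 1 of 30 tested calcium handling genes with a call (against 4.26% of all genes). The cardiac channel Ryr2 had 0.01 (interval -0.92 to 0.93), the calcium pump Atp2a2 -0.47 (interval -1.46 to 0.52) and its inhibitor phospholamban, Pln, -0.49 (interval -1.18 to 0.20). Pln overlaps Cep85l and the gene model Gm47644 on the other strand over 64.7% of its exon bases.

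Gnal, a stimulatory G protein alpha subunit, had 143, 114 and 123 in WT and 100.4, 73.1 and 77.1 in KO libraries at 6 weeks, lower in every KO library though not called. At 6 months it had 3.90, 5.70, 9.43, 13.3 and 6.20 in WT and 85.9, 220.3, 102, 227 and 310.3 in KO libraries, higher in every KO library (age difference 4.99 ± 0.46, adjusted p = 3.19e-06). It had the most positive age difference of the genes named by rule. Gnao1, another alpha subunit, had 2.46 ± 0.30 (adjusted p = 1.95e-05). The regulator of G protein signalling Rgs2, the catalytic subunit of protein kinase A Prkaca and the inhibitory subunit Gnai1 had negative age differences of -1.09, -0.80 and -1.47, each called, though the call was lost in 22 of 31 alternative settings for Prkaca and in 16 for Gnai1.

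Star, the protein that carries cholesterol into mitochondria, had 40.0, 42.9 and 39.9 in WT and 65.5, 56.2 and 49.6 in KO libraries at 6 weeks. At 6 months the values were 19.5, 9.50, 22.6, 28.7 and 60.9 in WT and 1145, 977, 602, 599.9 and 1425 in KO libraries. KO was above WT at both ages without overlap, and the age difference was 4.71 ± 0.49 (adjusted p = 4.96e-06). The channel Panx1 (3.49 ± 0.37), the vesicle GTPase Rab6b (3.65 ± 0.40), the prolyl 3-hydroxylase P3h2 (3.58 ± 0.59) and the glycosyltransferase Mgat5b (3.35 ± 0.78) also rose at 6 months with no call at 6 weeks, and had adjusted p of 4.96e-06, 6.49e-06, 0.00086 and 0.0141. P3h2 overlaps an opposite-strand gene model over 28.4% of its exon bases. Nmrk2, a kinase of the muscle pathway that makes NAD from nicotinamide riboside, was lower in all KO libraries at 6 weeks, with 448, 644 and 312 in WT and 282, 234 and 257 in KO. It was higher in all of them at 6 months, with 250.3, 133, 129, 142 and 81.4 in WT and 1465, 839, 669.9, 793 and 1799.7 in KO (age difference 3.70 ± 0.40, adjusted p = 5.62e-06). The 6-week change was not called (-0.80 ± 0.25, adjusted p = 0.159).

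Contractile and cytoskeletal lists each held 1 to 3 calls for the age difference, against 4.26% of all genes. Of 36 sarcomere and Z-disc genes 1 had a call, Myom3, an M-band protein of slow muscle (2.20 ± 0.53, adjusted p = 0.0197). Among 17 tested skeletal muscle isoforms, Myl1, a fast and embryonic myosin light chain, had 1382, 1222 and 978 in WT and 1357, 1726 and 1341 in KO libraries at 6 weeks. At 6 months it had 121, 92.2, 166, 109.8 and 169 in WT and 2815, 1474, 776, 1392 and 1950.5 in KO libraries (age difference 3.27 ± 0.36, adjusted p = 7.21e-06), groups that overlapped at the first age and not at the second. The kinase Mylk4 went the other way (-2.69 ± 0.61, adjusted p = 0.0168). Of 36 microtubule genes, Mapt, the microtubule-binding protein tau, had 1.25 ± 0.27 and Stmn1, which promotes microtubule disassembly, -1.30 ± 0.30, both called (Stmn1 shares 22.4% of its transcript sequence with other genes, chiefly Gm11223). Enah, an actin polymerisation factor of the intercalated disc, had 1.42 ± 0.29 (adjusted p = 0.00578), and the keratin Krt18 3.31 ± 0.53 (adjusted p = 0.0012). Vgll2, a cofactor of TEAD factors in skeletal muscle, did not enter the test because its 6-week values were 0 to 9.90, but in the 6-month table it was 1.95 to 6.61 in WT and 174.9 to 789 in KO libraries.

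**Figure D3:**
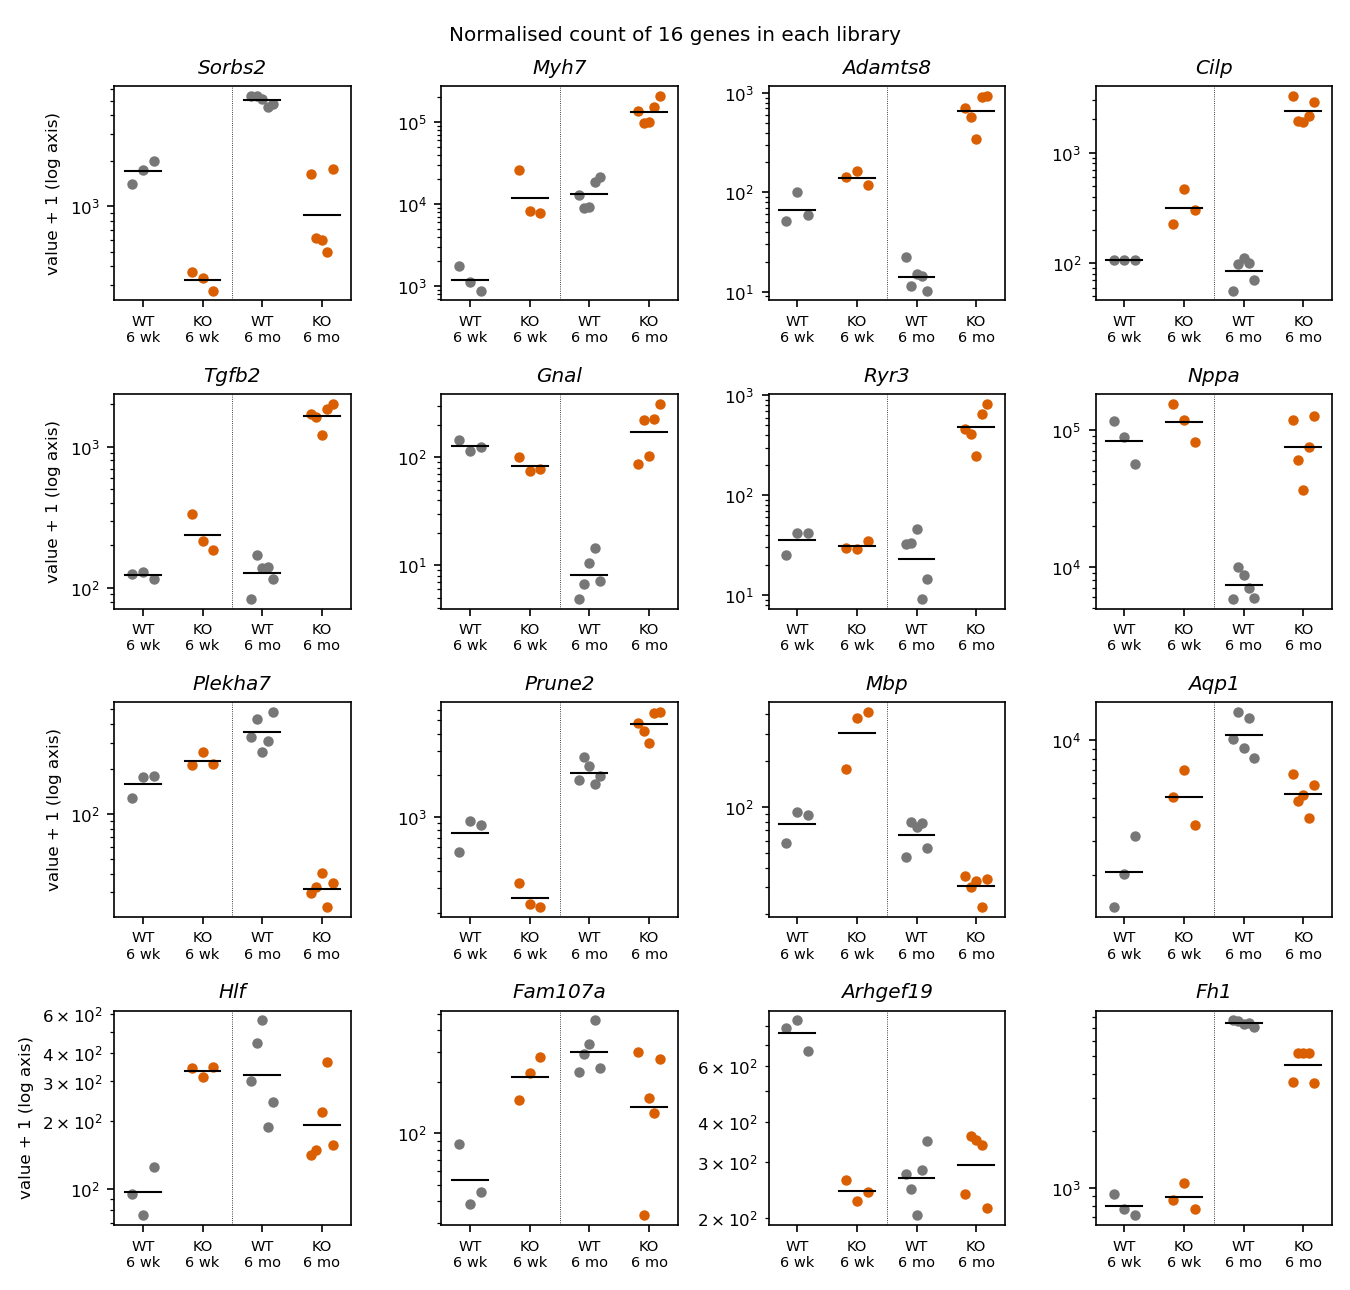
Normalised count + 1 of 16 genes (log y axes, scaled per gene) in each library of the 4 groups, WT in grey and KO in orange, with bars at the group means of the log2 values. Levels are not comparable across the dotted line because the tables were normalised separately. Sorbs2 and Myh7 show like steps at both ages, and Adamts8, Cilp, Tgfb2 and Nppa a larger step at 6 months. Gnal and Plekha7 to Aqp1 show steps in opposite directions. Ryr3 shows a step at 6 months with overlapping groups at 6 weeks, and Arhgef19 a step at 6 weeks only.

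Many genes of respiration, the citrate cycle and fatty acid oxidation fell in the 6-month KO, where 8.52% of all genes fell. Few of them had a lower KO effect at 6 months than at 6 weeks, a call that 2.24% of all genes had. These calls were 0 of 37 in complex I and 0 of 40 in complexes II to V. Fatty acid uptake and oxidation had 3 of 40 and the citrate cycle 1 of 23. Of 37 complex I genes 24 fell at 6 months and 0 at 6 weeks, and 0 had a call for the age difference (6 at an unadjusted p under 0.05, by limma). The median age difference was -0.36, and 36 of the 37 were negative. Of 40 genes of complexes II to V, 25 fell at 6 months, 0 at 6 weeks, and again 0 had a call (9 at an unadjusted p under 0.05), with a median of -0.39. At 6 weeks both lists already leaned down, with median log2 changes of -0.34 and -0.32, against -0.71 and -0.69 at 6 months. Among 40 genes of fatty acid uptake and oxidation, 26 fell at 6 months and 1 at 6 weeks (against 0.278% of all genes). Of the 40, 3 had a lower KO effect at 6 months. Acaa2, the last enzyme of mitochondrial beta-oxidation, had 4952, 4019.7 and 2859.9 in WT and 2573, 3304 and 2607 in KO libraries at 6 weeks. Its 6-month values were 17577, 14657, 14514, 17244 and 17288 in WT and 3945, 6933, 7177, 6156 and 3939.8 in KO libraries, every KO library below every WT library (age difference -1.12 ± 0.31, adjusted p = 0.0378). Ppargc1a, the coactivator that promotes mitochondrial biogenesis (-1.51 ± 0.38), and Etfa, which passes electrons from beta-oxidation to the respiratory chain (-1.04 ± 0.28), were the other two. None of the 3 had a call without library WT6 or without library KO3. Of 23 citrate cycle genes, fumarase, Fh1, had a call (-0.89 ± 0.24, adjusted p = 0.0395), 22 of the 23 age differences were negative, and the median was -0.58. The sum of 14 cardiomyocyte markers was 530016 to 830284 in WT and 468546 to 575993 in KO libraries at 6 weeks. At 6 months it was 1571380 to 1944980 in WT and 992692 to 1255800 in KO libraries. None of the 14 had a call for the age difference by limma (1 at an unadjusted p under 0.05, median -0.29), and the part of this sum in the metabolic lists was not tested.

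Of the genes with opposite signs, 5 were called at both ages. Prune2, a protein with a BCH domain, had 546, 923 and 871 in WT and 325, 229 and 219 in KO libraries at 6 weeks, and 1829, 2723, 2319, 1714 and 1964 in WT and 4819, 4175, 3431, 5617 and 5732 in KO libraries at 6 months. All KO libraries were below WT at 6 weeks and above it at 6 months, with log2 changes of -1.58 ± 0.24 and 1.17 ± 0.17 (age difference 2.75 ± 0.30, adjusted p = 6.49e-06). Ppip5k1, an inositol pyrophosphate kinase, turned in the same way, with -1.0 ± 0.20 and 0.68 ± 0.17. Mbp, myelin basic protein, turned the other way. It had 56.6, 90.9 and 86.7 in WT and 174, 376 and 412 in KO libraries at 6 weeks, and 46.1, 79.0, 73.1, 77.8 and 52.8 in WT and 34.3, 28.8, 31.5, 21.1 and 32.6 in KO libraries at 6 months. Every KO library was above WT at the first age and below it at the second, without overlap (age difference -3.07 ± 0.39, adjusted p = 5.68e-05). Adh1, an alcohol and retinol dehydrogenase, had 1.37 ± 0.24 and -1.15 ± 0.26, and Thrsp, a regulator of lipid synthesis, had 1.29 ± 0.23 and -1.0 ± 0.27. The WT and KO values of Adh1 and Thrsp overlapped at 6 months.

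The smallest p of the named genes was that of Plekha7, an adherens junction protein that links the junction to microtubules (mm10 chr7:116123485-116308376, minus strand). Its values were 126, 175 and 178 in WT and 210.5, 257 and 214 in KO libraries at 6 weeks, and 327, 429.7, 257, 308 and 477 in WT and 28.8, 31.4, 39.2, 23.0 and 33.6 in KO libraries at 6 months. At 6 weeks all KO libraries were above WT without a call (0.52 ± 0.22, adjusted p = 0.268), and at 6 months all were below it, with a KO level 11.1-fold lower (age difference -3.99 ± 0.29, adjusted p = 1.03e-08). Nt5dc2, a nucleotidase-like protein, had 0.58 ± 0.22 and -1.64 ± 0.19, and Hrasls, a phospholipid-modifying enzyme, -0.47 ± 0.30 and 2.79 ± 0.32. Herpud1, a protein of endoplasmic reticulum degradation, had 822, 551 and 596 in WT and 1042, 1261 and 907 in KO libraries at 6 weeks, and 3176, 3288, 2779, 2800.2 and 2486 in WT and 1592, 1326, 1799, 1656 and 1434 in KO libraries at 6 months. It was above WT in all KO libraries first and below it in all of them later (age difference -1.61 ± 0.25, adjusted p = 0.000679). Herpud1 was the 1 of 23 endoplasmic reticulum stress genes with a call (against 4.26% of all genes).

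The 2 most negative age differences among the named genes were of genes that were low at 6 weeks in both genotypes. Gdpd3, a lysophospholipase D, had 15.2, 15.1 and 4.47 in WT and 12.6, 9.73 and 7.77 in KO libraries at 6 weeks, and 735, 564, 239, 448 and 444 in WT and 4.37, 1.95, 4.80, 6.55 and 2.47 in KO libraries at 6 months (age difference -6.54 ± 0.68, adjusted p = 8.91e-06). Ptprn2, a receptor-type phosphatase of secretory granules, had 0, 2.14 and 15.5 in WT and 3.58, 15.5 and 18.1 in KO libraries at 6 weeks, and 214, 539, 210.2, 132 and 189 in WT and 6.20, 2.92, 0, 5.44 and 4.11 in KO libraries at 6 months (-7.46 ± 1.14, adjusted p = 0.000821). In both genes the 6-month groups lay far apart and the 6-week groups overlapped at values near the entry threshold. Hal, which breaks down histidine, had 43.6, 122 and 49.9 in WT and 57.4, 28.9 and 35.4 in KO libraries at 6 weeks and 52.6, 72.3, 55.6, 60.5 and 84.6 in WT and 0.883, 3.90, 0, 1.09 and 0.821 in KO libraries at 6 months (-4.28 ± 0.57, adjusted p = 5.68e-05). Lrrc4b (-3.0 ± 0.58), Igsf23 (-3.03 ± 0.60) and Retnla (-3.80 ± 0.68) likewise overlapped at 6 weeks and fell at 6 months without overlap. Rmnd1 (-5.13 ± 1.14) and Abhd1 (-2.99 ± 0.63) are uncertain by their sequence: Rmnd1 shares 24.0% of its transcript sequence with other genes, and 89.6% of the exon bases of Abhd1 overlap Preb on the other strand. Gprc5a (-2.94 ± 0.85, adjusted p = 0.0495) overlapped between WT and KO at both ages, and its call was lost in 18 of 31 alternative settings.

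A smaller group was called at 6 weeks and not at 6 months. Of 63 genes called only at 6 weeks, 38 had a call for the age difference. Arhgef19, a guanine nucleotide exchange factor, had 790.4, 833 and 667 in WT and 263, 225 and 241 in KO libraries at 6 weeks, a fall to below all WT libraries. At 6 months the values overlapped, with 273, 245, 203, 282 and 348 in WT and 236, 361, 351, 338 and 213 in KO (age difference 1.78 ± 0.26, adjusted p = 0.000197). Asap3, an Arf GTPase-activating protein, fell in the same way (-1.53 ± 0.23 at 6 weeks, 0.03 ± 0.15 at 6 months). Upward, Bcl2l1, an inhibitor of apoptosis, had 376, 256 and 308 in WT and 797, 947 and 1048 in KO libraries at 6 weeks and 965, 1016, 999, 1499 and 693 in WT and 1015, 485, 1025, 788 and 1320.2 in KO libraries at 6 months (age difference -1.77 ± 0.33, adjusted p = 0.00232). Kcna5, a voltage-gated potassium channel, rose by 1.59 ± 0.23 at 6 weeks, with -0.42 ± 0.25 at 6 months, and Sema7a, a membrane-bound semaphorin, by 1.63 ± 0.24, with 0.07 ± 0.26. Among 25 tested potassium channel genes 3 had a lower KO effect at 6 months (against 2.24% of all genes), Kcna5, Kcnv2 (-1.33 ± 0.35) and Kcnj3, a channel typical of atria (-1.97 ± 0.35). Kcnj3 is on the list of atrial markers, as is the secreted protein Dkk3, which had a positive age difference (2.20 ± 0.42), and both were called. Kcnj3 overlaps an opposite-strand gene model over 31.1% of its exon bases.

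Glucocorticoid receptor targets, which follow circulating corticosterone, and clock genes, which follow the time of day, held several calls with a lower KO effect at 6 months. Of 20 tested glucocorticoid targets, 5 had a lower KO effect at 6 months (against 2.24% of all genes) and 0 a higher one, and 17 of the 20 age differences were negative, with a median of -0.96. The list median was 0.75 at 6 weeks and -0.30 at 6 months. Fam107a, an actin-binding protein induced by glucocorticoids, had 86.2, 37.6 and 44.3 in WT and 156, 226 and 278 in KO libraries at 6 weeks and 226, 289, 330.1, 456 and 240.4 in WT and 298, 32.2, 161, 131 and 270.2 in KO libraries at 6 months (age difference -3.09 ± 0.59, adjusted p = 0.00352). Every KO library was above WT at 6 weeks, and the groups overlapped at 6 months. Ddit4, an inhibitor of mTOR signalling (-2.23 ± 0.58), Tsc22d3, the leucine zipper protein GILZ (-1.57 ± 0.40), the sulfotransferase Sult1a1 (-1.35 ± 0.32) and the transcription factor Klf15 (-1.32 ± 0.36) were the others. Fkbp5, a cochaperone of the receptor, had -2.0 ± 0.58 and did not pass (adjusted p = 0.0503). Without library WT6, KO3 or KO4 the list had 2 calls each time, and with unmoderated standard errors it had 0.

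Of 20 clock genes 3 had a lower KO effect at 6 months (against 2.24% of all genes) and 1 a higher one (against 2.02%). Hlf, a clock output factor that binds D-boxes, had 93.7, 75.0 and 124 in WT and 342, 314 and 348 in KO libraries at 6 weeks. At 6 months it had 301, 445, 559.9, 188 and 243 in WT and 140.0, 147, 217, 365 and 156 in KO libraries, which overlap (age difference -2.54 ± 0.39, adjusted p = 0.000533). Per2, a repressor of the clock, had 355, 122 and 374 in WT and 685, 1120.1 and 1711 in KO libraries at 6 weeks and 165, 489.8, 579.6, 149.6 and 525 in WT and 439, 57.5, 190.4, 431 and 409 in KO libraries at 6 months, with KO above WT only at 6 weeks (-2.53 ± 0.71, adjusted p = 0.0448). Clock, an activator, went the other way, with 613, 700.2 and 611 in WT and 300.0, 399 and 326 in KO libraries at 6 weeks and 673, 640.0, 544, 701 and 551 in WT and 674, 1061, 969.8, 622 and 750.0 in KO libraries at 6 months (1.28 ± 0.25, adjusted p = 0.0031). Its partner Arntl had 2.40 ± 0.74 (adjusted p = 0.0698). Ciart, a further repressor, had -2.32 ± 0.63 (adjusted p = 0.0389), though 20.8% of its transcript sequence is shared with Gm9176. The promoter of Ciart is shown because it carries 3 copies of the E-box CACGTG, the letters that CLOCK and ARNTL bind, which were found in 6.02% of all promoter windows of this length. It is the RefSeq sequence of the 250 bases before the start (GRCm38.p6, minus strand, 5′ to 3′ in the direction of transcription), with the E-boxes in capitals. In the clock list, of which 17 of 20 genes had a promoter to search, 6 of 22 promoters (27.3%) held the E-box. Hlf, Per2 and Clock, the other called members, were not among the genes found with it.
Ciart, chr3:95882229-95882478: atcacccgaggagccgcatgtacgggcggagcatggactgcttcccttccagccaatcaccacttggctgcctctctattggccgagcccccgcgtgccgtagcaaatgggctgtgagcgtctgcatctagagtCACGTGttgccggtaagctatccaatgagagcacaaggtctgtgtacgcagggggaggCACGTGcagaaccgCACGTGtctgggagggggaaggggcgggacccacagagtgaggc
The time of day at which hearts were taken is not in the labels, so a difference in it between WT and KO groups was not tested. Without library WT6, KO3 or KO4 the list had 1 higher and 1 lower call, and with Y-linked libraries alone it had 2 higher and 8 lower.

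Immediate early genes respond to acute stimuli within minutes. Of 22 tested members 4 had a lower KO effect at 6 months (against 2.24% of all genes) and 0 a higher one, all 22 age differences were negative, and the median was -0.76. At 6 weeks 0 members passed the test, and at 6 months 7 fell (against 8.52% of all genes) and 1 rose (against 7.96%). Arc, a regulator of endocytosis and a textbook early gene, had 22.5, 13.9 and 22.1 in WT and 14.4, 28.9 and 38.2 in KO libraries at 6 weeks, and 1229.7, 1946, 1317, 1507 and 617 in WT and 160.0, 182, 138, 496 and 332 in KO libraries at 6 months, where KO was below WT in all libraries (-2.80 ± 0.58, adjusted p = 0.00549). Atf3, a stress-induced factor (-1.96 ± 0.50), Zfp36, which destabilises messenger RNAs (-1.30 ± 0.33), and Jund, a subunit of AP-1 (-1.0 ± 0.28), were the other 3. Of the exon bases of Jund, 52.6% overlap an opposite-strand gene model. The list had 2 calls without library WT6, KO3 or KO4, and 0 with unmoderated standard errors.

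Markers of endothelial and Schwann cells had a lower KO effect at 6 months. Of 14 endothelial markers 5 were called lower (against 2.24% of all genes) and 0 higher, and the list median went from 0.39 at 6 weeks to -0.22 at 6 months. The summed level of the 14 markers at 6 weeks was 16805 to 22336 in WT and 26369 to 34366 in KO libraries. At 6 months it was 38652 to 49569 in WT and 26101 to 39488 in KO libraries. Aqp1, a water channel of capillary endothelium, had 1359.5, 2024 and 3187 in WT and 5086, 6969 and 3639 in KO libraries at 6 weeks, and 10102, 13929.5, 9069.8, 13055 and 8030.1 in WT and 6668, 4818, 5186, 3954 and 5872 in KO libraries at 6 months. All KO libraries were above WT first and below it later without overlap (-2.31 ± 0.37, adjusted p = 0.000915). The adhesion proteins Pecam1 (1.09 ± 0.24 at 6 weeks, -0.01 ± 0.12 at 6 months) and Cdh5 (1.18 ± 0.29, -0.06 ± 0.14) had opposite signs at the ages, with 6-month estimates within 1 SE of 0. Emcn and the fatty acid carrier Fabp4 had age differences of -1.02 ± 0.25 and -1.27 ± 0.37. The receptors Kdr, Tek and Flt1, also endothelial, had age differences of -0.08, -0.25 and -0.45, none called. No endothelial marker was called at 6 weeks, and without library WT6, KO3 or KO4 the list had 1, 1 and 3 calls for the age difference. With unmoderated standard errors it had 0, and the call of Fabp4 was lost in 22 of 31 alternative settings.

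Of 12 tested markers of Schwann cells, the glia that wrap nerve fibres of the heart, 4 were called lower (against 2.24% of all genes) and 0 higher. Their median was -1.04. Besides Mbp these were the glial factor Sox10 (1.53 ± 0.34 at 6 weeks, -0.77 ± 0.39 at 6 months), the receptor Gfra3 (0.38 ± 0.39, -1.80 ± 0.25) and the channel Kcna1 (0.08 ± 0.21, -1.30 ± 0.28). The summed markers at 6 weeks were 1303 to 1603 in WT and 1918 to 2992 in KO libraries, and 1219 to 2015 and 1377 to 2078 at 6 months. The myelin gene Pmp22 had an age difference of -0.10, which was not called. Adipocyte markers summed to 1468 to 2435 in 6-week WT and 2481 to 5892 in 6-week KO libraries, with the lowest KO sum close to the highest WT sum. The part of these markers in the age differences of other genes was not tested.

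**Figure D4:**
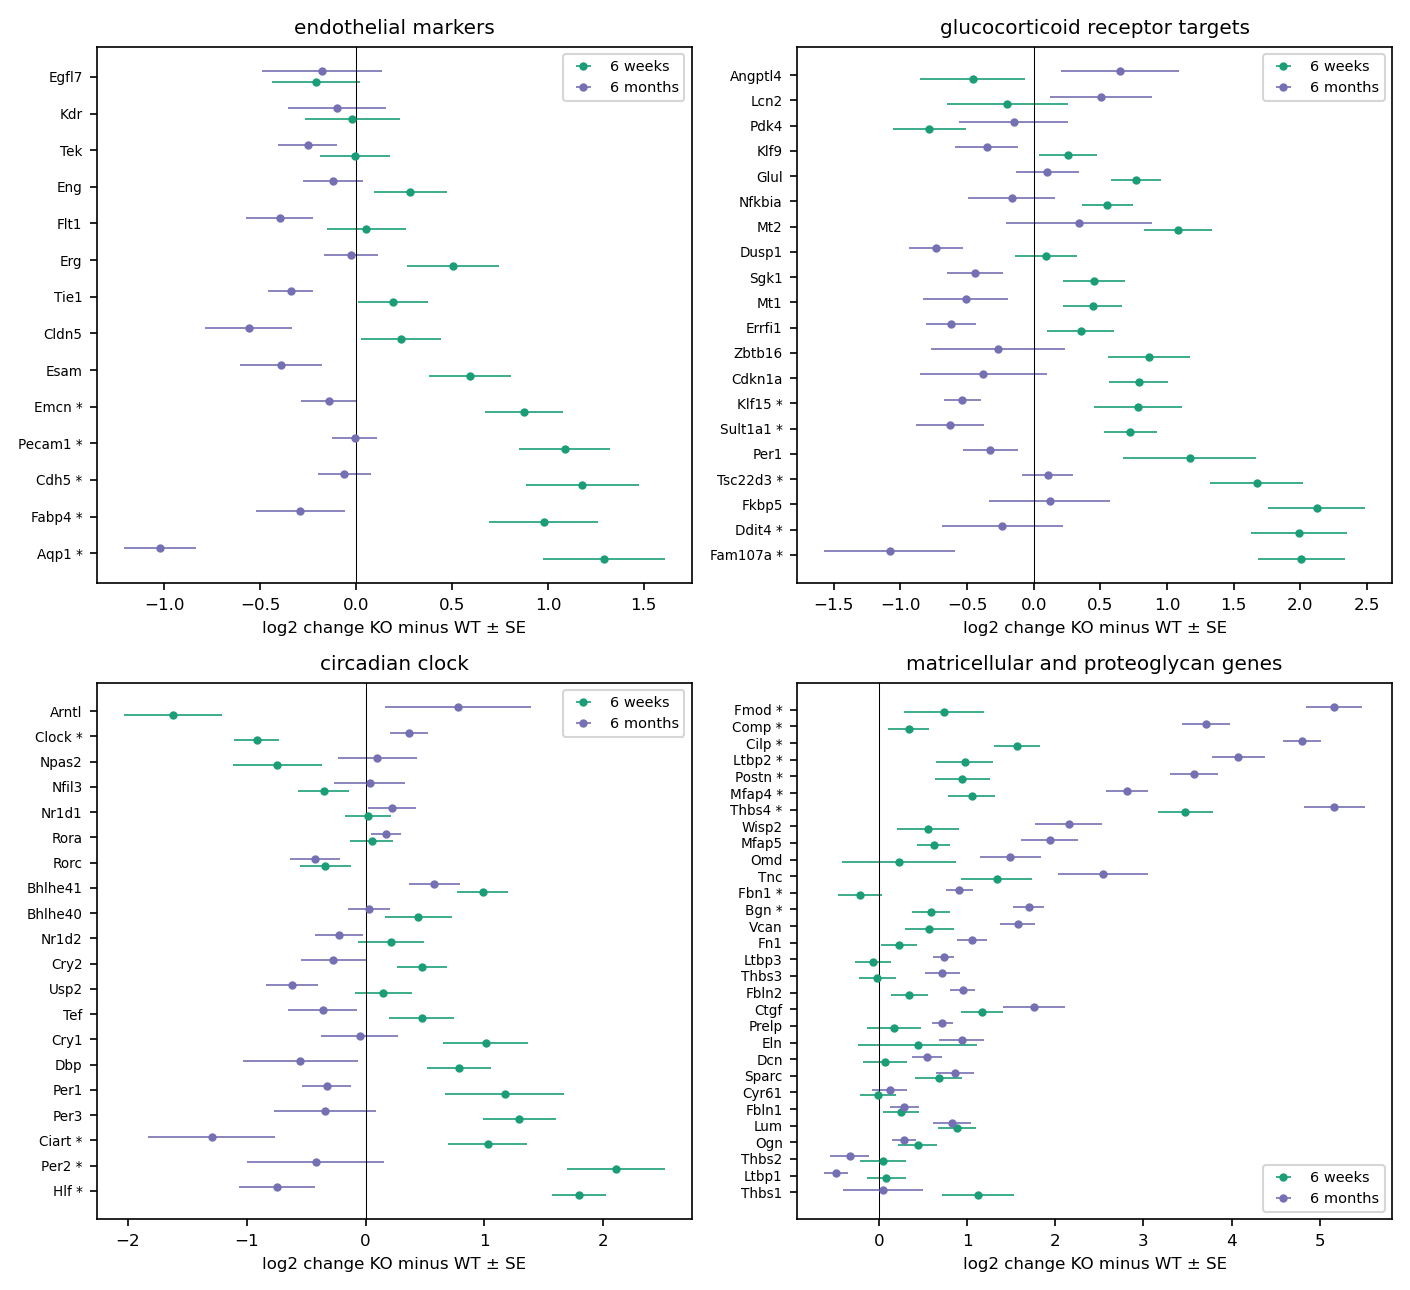
Log2 change KO minus WT ± SE at 6 weeks (green) and 6 months (purple) for the tested members of 4 lists, ordered by age difference, with an asterisk where the age difference had an adjusted p under 0.05. The 6-week point lies to the right of the 6-month point in 13 of 14 endothelial markers, 17 of 20 glucocorticoid targets and 14 of 20 clock genes, and to the left of it in 25 of 30 matricellular genes.

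Interferon, macrophage and cell cycle genes had shares of calls not far from the 4.26% of all genes. Of 28 interferon response genes 13 rose at 6 months (7.96% of all genes did) and 1 at 6 weeks (0.485% of all genes did). A higher KO effect at 6 months was called for 2, and the median age difference was 0.61. The 2 were Zbp1, a sensor of Z-form nucleic acids (2.45 ± 0.47, adjusted p = 0.00287), and Ifit3 (1.08 ± 0.28, adjusted p = 0.0251), which shares 61.8% of its transcript sequence with Ifit3b. Of 14 macrophage markers the fractalkine receptor Cx3cr1 had a call (1.80 ± 0.49, adjusted p = 0.0354). Of 32 cell cycle genes 11 rose at 6 months and 0 at 6 weeks, and 2 had a call, the helicase subunit Mcm6 upward (1.27 ± 0.32) and the sliding clamp Pcna downward (-0.94 ± 0.26), though 23.3% of the transcript sequence of Pcna is shared, chiefly with Pcna-ps2, and its call was lost in 16 of 31 alternative settings. The 76 cytosolic ribosomal protein genes had 0 calls by limma (6 at an unadjusted p under 0.05) and a median of -0.21, whose sign turned under another setting. Of 15 tested neighbours of Sorbs2 on its chromosome, Fat1, an atypical cadherin, had a call (1.26 ± 0.32, adjusted p = 0.029), and the list median was 0.04.

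**Figure D5:**
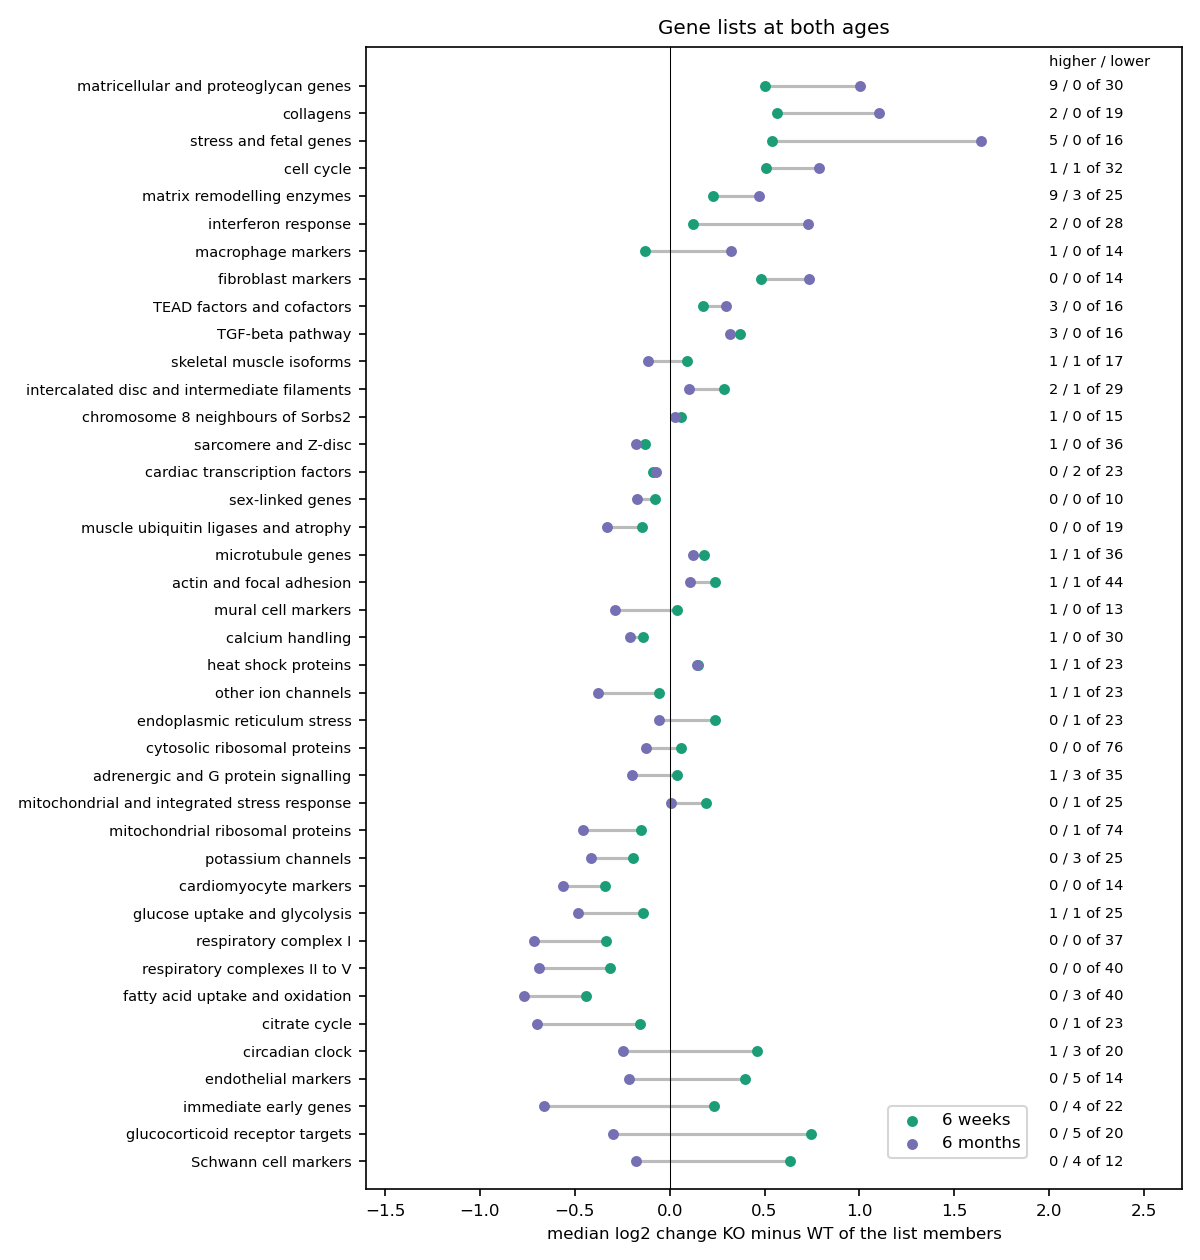
Median log2 change KO minus WT of the tested members of each list with at least 10 of them (x axis) at 6 weeks (green) and 6 months (purple), with lists ordered by their median age difference and the count of members with a higher or lower KO effect at 6 months at the right. Collagens, matricellular genes, matrix enzymes and the stress and fetal genes have the 6-month point to the right. Glucocorticoid, immediate early, endothelial and Schwann cell lists have it to the left of 0 with the 6-week point to the right of 0. So do the clock, endoplasmic reticulum stress, adrenergic and G protein, cytosolic ribosomal, skeletal muscle isoform and mural cell lists.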

How the data were processed

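Stranded poly(A) libraries of RNA with an integrity number above 9 were sequenced as 150 bp read pairs, at least 40 M per sample, per the labels and the series text. The authors deposited 1 table of normalised counts per age, which are signal values: fractional, never negative and scaled within each table. Per the submitters' processing notes the build was mm10. The series text names DESeq2 for the authors' own comparison. Not given in the sources used here: which aligner, counter and annotation were used, and whether reads were counted by strand.

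Each table was fitted with limma 3.58.1 (R 4.3.3) with a mean-variance trend on log2(normalised count + 1), KO minus WT. The age difference was divided by the root of the summed squared moderated standard errors, with Welch-Satterthwaite degrees of freedom, and p-values were adjusted by Benjamini-Hochberg over all 12577 genes. Fold changes are on the log2(value + 1) scale and understate those of low genes. On simulated data, with 12577 genes run and 100 changed at each size, 44% of 2-fold and 100% of 4-fold age differences were recovered, and 8 of the 152 calls were of genes simulated without change. The simulation gave every gene the same dispersion at both ages. Its rates therefore do not cover genes or libraries whose spread differs, as in the real data. Named genes were Sorbs2, the 12 largest called differences each way among genes with a mean of at least 50, the 8 called with opposite directions at smallest p, 6 called at both ages in the same direction with no call for the difference, 6 called at 6 weeks and not at 6 months, and up to 4 members of smallest p per list. The 5 genes called in both directions, Thbs4 and further list members were named after their values were seen. Members and lists were chosen with earlier results of these data known. There were 50 lists, and 6 symbols were matched through an older symbol. Gene positions are from GENCODE vM21, promoters from RefSeq, and figures were drawn with matplotlib 3.10.9. Replicate numbers paired no samples by the check in the closing section. Replicates are separate samples, and nothing says which share a cage or day, so p-values cover the spread between these samples. Depth in reads is not known from normalised counts. Alternatives were the pseudocount, the filter, the scaling, the fit, the Xist class and leaving out libraries.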

Additional observations from a re-analysis of the deposited data

Results flagged for a closer look

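The KO effect itself differed between the ages for 536 genes by the test of the difference. Of these, 5 were called at both ages in opposite directions, with age differences of -3.07 for Mbp, -2.52 for Adh1, -2.29 for Thrsp, 1.68 for Ppip5k1 and 2.75 for Prune2.

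In 6 of the 226 groups of 5 libraries examined at 6 months, 1 library lay far from the other 4 (gap over range above Dixon's 95% critical value), and chance gives about 1 in 20. WT replicate 5 was the lowest for 4 genes. It had 2.07 normalised counts of Col12a1 against 12.7 to 23.7 in the other WT libraries, 8354 of Etfa against 10451 to 11107, 18.6 of Hrasls against 50.3 to 71.2 and 3050.5 of Prkaca against 3505 to 3602. KO replicate 1 had 2449 of Cdh5 against 3060.3 to 3217, and KO replicate 5 had 19.7 of Pfkfb1 against 43.1 to 50.7.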

How the results depend on the processing

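Against 536 calls with all libraries, leaving out 1 library at a time gave 228 to 667, with 114 to 336 higher, 114 to 331 lower and 159 to 523 of opposite sign against 404. Standard errors without moderation gave 233 calls, of which 113 were higher, 120 lower and 176 of opposite sign. Libraries with Y-linked expression alone gave 849, with 497 higher and 691 of opposite sign, and the Xist class as a covariate gave 416 higher. Scaling to equal totals gave 180 lower against 257 higher, so that 58.8% of calls were higher against 47.4% in the deposited scaling, and it moved the median age difference of all genes by 0.07. The cause was not tested in any of these. The other alternatives stayed within 1.5 times of 536. Of 121 named genes with a call, 42 passed in every alternative and 0 changed direction. Without WT6, KO3 or KO4, 11 to 15 genes were called at 6 weeks against 96. That count was 4 with unmoderated standard errors, 282 with the Xist class as a covariate and 471 with Y-linked libraries alone.

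At 6 months the replicate numbers of WT and KO did not pair the samples: the deviations of same-numbered libraries had correlations of -0.20 to 0.24 over 5 pairs, 3 of them over 0.1, and 0 libraries correlated best with their own number. A fit with the replicate number as a block gave 589 calls. The 6-week columns carry no number that could be paired. The 3 libraries a group at 6 weeks limit the precision, and the depth in reads is not known from these values.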
